A study of Arabidopsis thaliana with 4 samples.

Results

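Plant cells use calcium as a messenger. Channels let calcium into the cytosol, sensor proteins bind it and pass the signal to kinases and other targets, and pumps and exchangers remove it again. A rapid rise of cytosolic calcium is among the first known responses of Arabidopsis to chilling, and calcium-dependent steps feed the induction of cold-regulated genes. The genes described here have a symbol that starts with CPK, CDPK, CIPK, CBL, CML, CAM, CNGC, GLR, ACA or CAX followed by a number. These names are used for sensors, kinases, channels and pumps of this system. Of 142 genes in the TAIR10.1 gene table with such a symbol, 14 had a probe set of their own under the platform annotation, of 13355 genes in all. Some of the 142 may be of other families, since alpha carbonic anhydrases share the ACA symbol. The 14 belong to only 2 of the classes, with 7 of the 8 CML genes of that table, which encode calmodulin-like sensors, and 7 of its 18 GLR genes, which encode glutamate receptor-like channels. The kinases (CPK, CDPK and CIPK), the CBL and CAM sensors, the CNGC channels, the ACA pumps and the CAX exchangers have 0 genes measured here, so the label of the group covers more than its data do.

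Expression was measured on 4 single-colour Affymetrix arrays of total RNA from Arabidopsis thaliana seedlings aged 7 days, all kept at 5 °C for 6 h before harvest. There were 2 experiments with 2 lines each: sfr6-3 (WiscDsLox504A08) beside wild-type Col-0, and sfr6-2 (SALK_048091) beside its own Col-0. Both mutants are insertion lines of SFR6. Its protein belongs to Mediator, which connects transcription factors with RNA polymerase II. Each line has 1 array per experiment, no seedlings without cold were on these arrays, and the labels do not say how many plants or dishes went into a sample. Any p-value therefore rests on these arrays alone and cannot be read as a spread between plants. It draws mostly on the spread of other genes of similar level, since the main fit had 17.5 prior and 1 residual degrees of freedom. With 0 single-gene probe sets here for SFR6 itself, its transcript gave no check of the genotype labels.

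The values are log2 MAS5 expression values as the authors deposited them, with every array brought by itself to the same trimmed mean. A value under 6.46, the 40th percentile of all probe sets other than array controls, is called dim below. MAS5 subtracts a mismatch signal, and for dim probe sets the logarithm turns small differences of signal into large ones. Of genes dim on both arrays of a pair, 43.8% differed at least 2-fold between sfr6-3 and its Col-0, 45.3% between sfr6-2 and its Col-0, and 44.6% between the Col-0 arrays of the 2 experiments. In the same order, the shares were 37.1%, 34.4% and 41.2% of genes dim on 1 of the 2 arrays, and 6.05%, 4.03% and 8.60% of genes dim on neither.

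**Figure D1:**
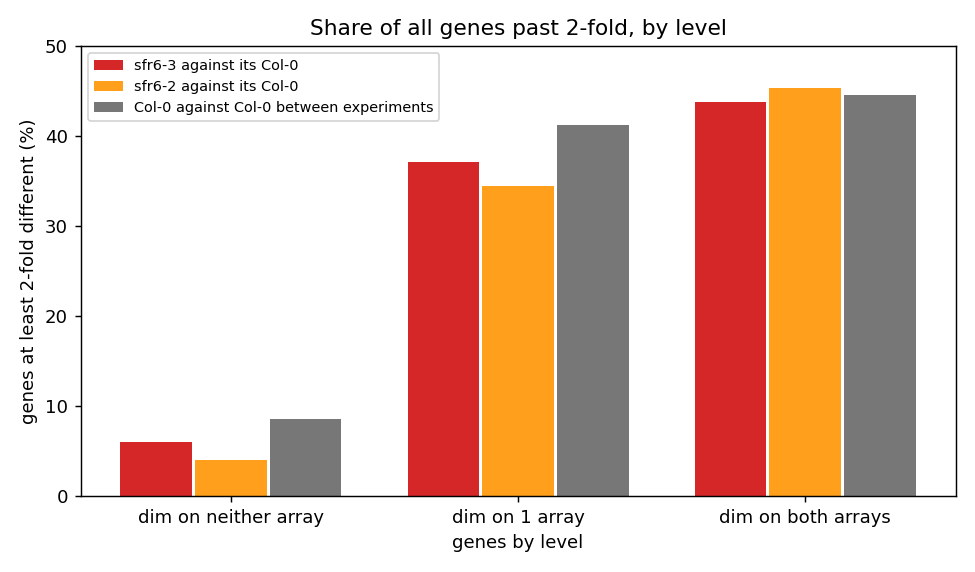
Share of all genes that differed at least 2-fold between 2 arrays (percent, vertical axis), by the number of the 2 arrays on which the gene was dim (horizontal axis), for each mutant against its Col-0 and for the Col-0 arrays of the 2 experiments. For genes dim on both arrays the share is 43.8% to 45.3% in every pair, also between the wild-type arrays, and it is 4.03% to 8.60% for genes dim on neither.

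Most of these genes, which were matched by symbol, gave little signal in the chilled seedlings. Genes listed under a locus name alone were not matched, so this is no result about all sensors or channels. Of the 14, 8 were dim on all 4 arrays (57.1%, against 40.3% of all genes), 4 on some of them, and 2, CML42 and GLR3.3, on none, as 48.1% of all genes were. A mean of 6.46 or more, needed to enter the test across genes, was reached by 3 members, CML42, GLR3.3 and GLR3.6, against 53.9% of all genes. A limma fit over 7204 genes, with the experiment as a block and the alleles as 2 replicates of 1 mutant effect, called 4.71% of genes at an adjusted p of 0.05. It called 0 of these 3 members, and 0 of them had an unadjusted p under 0.05. In a fit over all 13355 genes without the limit on the mean, which called 0.854% of genes, 0 of the 14 members were called, with adjusted p-values from 0.349 to 0.988. CML37, CML38 and GLR2.9 had an unadjusted p under 0.05 there, CML37 and GLR2.9 while dim on all 4 arrays. The share of all genes under that unadjusted p is not given here, so these 3 are no result about the group. On a simulation of the combined effect over 7204 genes, as many as pass the limit on the mean, the main fit called 67.0% of 2-fold changes. That share does not apply to the fit without the limit or to members below it.

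**Figure D2:**
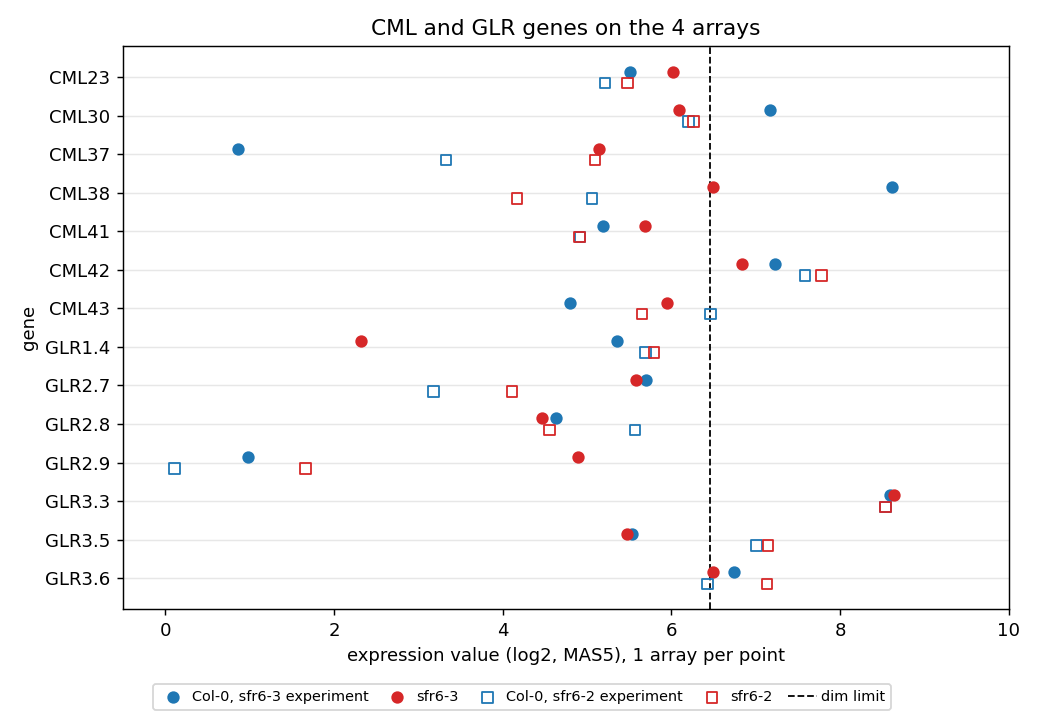
Expression value (log2, MAS5, horizontal axis) of each CML and GLR gene (vertical axis) on the 4 arrays, with filled circles for the sfr6-3 experiment, open squares for the sfr6-2 experiment, blue for Col-0, red for the mutants and a dashed line at the dim limit of 6.46. CML42 and GLR3.3 lie above the limit on all arrays, CML38 ranges from 4.17 to 8.61, and 8 genes stay below the limit throughout.

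The CML members encode calmodulin-like sensors, which bind calcium through EF hands and have no kinase domain of their own. Among these members, CML38 had the widest difference on arrays where it was not dim. CML38 (AT1G76650) is known for induction by wounding and by low oxygen. It read 8.61 in the control and 6.49 in the mutant of the sfr6-3 experiment, and 5.06 in the control and 4.17 in the mutant of the sfr6-2 experiment. The mutant was thus the lower line in both experiments, by 2.12 and by 0.89 on the log2 scale, the first a 4.35-fold difference between arrays on which the gene was not dim. The sfr6-3 value of 6.49 lay only just above the dim limit of 6.46, so the size of this difference is inexact too. In the sfr6-2 experiment both lines were dim, and with dim values raised to the limit that difference is 0. The difference between the controls (sfr6-2 experiment minus sfr6-3 experiment) was -3.56 and that between the mutants was -2.33, both against dim values. With dim values raised to the limit, the controls differed by -2.15, beside -2.12 for sfr6-3 and its control. CML38 did not pass the fit without a limit on the mean (mean difference -1.50, SE 0.53, limma adjusted p = 0.349). Leaving out the control of the sfr6-3 experiment, which also drops the pairing and sets sfr6-3 against the control of the other experiment, gave a mean difference of 0.27, whereas the pair that remains within the sfr6-2 experiment has the difference of -0.89 given above.

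The seed markers moved between the same arrays, by more than the photosynthetic and root sums given below. Of 7 listed seed genes 2 were measured, and their summed level was 8.55 and 6.02 in the controls of the sfr6-3 and sfr6-2 experiments and 7.59 in sfr6-3 and 8.83 in sfr6-2 (log2 of the linear sum). Neither was dim on all 4 arrays. M17, a seed maturation gene, read 8.33 and 6.78 in the control and mutant of the sfr6-3 experiment, and 4.38 and 7.19 in those of the sfr6-2 experiment. The other, AT3G01570, of the oleosin family, read 5.76 and 6.38 in the sfr6-3 experiment and 5.47 and 8.28 in the sfr6-2 experiment, and was called higher in the combined fit (mean difference 1.71, SE 0.46, limma adjusted p = 0.0373). AT3G01570 was dim on 3 arrays, all but that of sfr6-2. With dim values raised to the limit its differences were 0 in sfr6-3 and 1.82 in sfr6-2. The controls thus differed widely in M17, where that of the sfr6-2 experiment was dim, and little in AT3G01570, where both were dim. The part of seed transcripts in the CML38 values was not tested, and in bulk seedling tissue fewer cells of a type and less RNA per cell cannot be told apart. The 3 measured of 6 photosynthetic markers (LHCB4.1, PRK and RCA) summed to 16.0 and 16.2 in Col-0 and to 15.8 and 16.1 in the mutants, and the 2 of 8 root markers (EXPA7 and PYK10) to 13.9 and 14.3 and to 13.4 and 14.3. PYK10 made up nearly all of the root sum, while EXPA7 was dim in both lines of the sfr6-3 experiment (6.33 and 6.37). The photosynthetic markers and the root gene PYK10 were thus present on every array, and EXPA7 was above the limit only in the sfr6-2 experiment. The 1 measured of 3 pollen markers, ACT12, was dim throughout, at 2.47 and 4.50 in Col-0 and 3.43 and 5.98 in the mutants. The 4 measured of 7 cold-regulated genes, none of them dim, summed to 16.3 and 16.7 in Col-0 and to 14.8 and 15.4 in the mutants, and both mutants lay below both controls.

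CML37 (AT5G42380), a close relative of CML38 known for induction by wounding and drought, went the other way, at levels too dim to measure well. It stood at 0.86 and 5.14 in the control and mutant of the sfr6-3 experiment, and at 3.33 and 5.09 in those of the sfr6-2 experiment. Both mutants lay above both Col-0 arrays, by 4.28 and 1.77 against their own controls. All 4 values are nevertheless under the dim limit, where genes dim on both arrays had a median absolute difference of 0.82 in sfr6-3 and 0.86 in sfr6-2, and a 90th percentile of 2.84 and 2.90. The mean difference of 3.02 had an SE of 1.08 without a limit on the mean (adjusted p = 0.351) and was 0.97 after the 20th percentile of the linear values had been added before taking logs.

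CML42 (AT4G20780), which acts in trichome branching and in defence against herbivores, was the 1 CML member above the dim limit on every array. It read 7.23 in the control and 6.83 in the mutant of the sfr6-3 experiment, and 7.58 in the control and 7.78 in the mutant of the sfr6-2 experiment. The mutant was lower in one pair and higher in the other, and the 2 Col-0 arrays differed by 0.35, about as much as the sfr6-3 pair (-0.40) and more than the sfr6-2 pair (0.20). The mean difference was -0.10 (SE 0.30, 95% interval -0.73 to 0.53, limma adjusted p = 0.909). The interval holds changes of either sign, so an equal level was not shown.

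CML30 (AT2G15680) encodes a sensor reported in mitochondria. It stood at 7.17 and 6.09 in the control and mutant of the sfr6-3 experiment, and at 6.20 and 6.26 in those of the sfr6-2 experiment. Only the control of the sfr6-3 experiment lay above the dim limit, and the other 3 arrays lay between 6.09 and 6.26. The difference was -1.08 in sfr6-3, or -0.71 with dim values raised to the limit, and 0.06 in sfr6-2.

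CML43 (AT5G44460), linked to defence, read 4.79 in the control and 5.95 in the mutant of the sfr6-3 experiment, and 6.46 in the control and 5.65 in the mutant of the sfr6-2 experiment. The highest of these lies just under the limit, which rounds to the same 6.46. The differences were 1.15 in sfr6-3 and -0.81 in sfr6-2, and the mutants lay between the Col-0 arrays, which were 1.67 apart. It is the 1 member at least 1.5-fold changed in opposite directions, as 9.12% of all genes were.

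The last sensors fall outside the rule for genes given on all arrays and were added so that every member is shown. CML23 (AT1G66400), which acts with its close relative CML24 in nitric oxide levels and flowering, stood at 5.51 and 6.02 in the control and mutant of the sfr6-3 experiment, and at 5.21 and 5.48 in those of the sfr6-2 experiment. CML41 (AT3G50770), a sensor at plasmodesmata that acts in callose deposition during defence, read 5.19 in the control and 5.69 in the mutant of the sfr6-3 experiment, and 4.92 in the control and 4.91 in the mutant of the sfr6-2 experiment. Both were dim on all arrays and differed by at most 0.51 from their own control.

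Among the channel genes, GLR3.3 and GLR3.6 encode channels needed for the electrical and calcium signals that spread from wounded leaves, and both reached the mean needed for the test. GLR3.3 (AT1G42540) was the steadiest member: it stood at 8.59 and 8.64 in the control and mutant of the sfr6-3 experiment, and at 8.54 and 8.54 in those of the sfr6-2 experiment. The 4 arrays thus lay between 8.54 and 8.64, and the mean difference was 0.03 (SE 0.23, 95% interval -0.46 to 0.52, limma adjusted p = 0.971), with a sign that turned below 0 after quantile, cyclic loess and median normalization. The SE is that of genes of this level in general, since 1 residual degree of freedom says little about a single gene. GLR3.6 (AT3G51480) read 6.74 in the control and 6.50 in the mutant of the sfr6-3 experiment, and 6.43 in the control and 7.13 in the mutant of the sfr6-2 experiment. The sfr6-2 array was the highest and its own Col-0 the lowest, while sfr6-3 was below its control. The mean difference of 0.23 (SE 0.37, 95% interval -0.56 to 1.01, adjusted p = 0.813) did not pass.

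GLR3.5 (AT2G32390), a channel reported in mitochondria and plastids, separated the experiments and not the genotypes. It stood at 5.53 and 5.48 in the control and mutant of the sfr6-3 experiment, and at 7.01 and 7.14 in those of the sfr6-2 experiment. Both lines of the sfr6-2 experiment lay above both lines of the other, by 1.47 between the Col-0 arrays and by 1.67 between the mutants, whereas mutant and control differed by -0.06 and 0.14. The lower experiment was dim, so the size of the gap is inexact.

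GLR2.7, GLR2.8 and GLR2.9 are next to each other in the TAIR10.1 gene table, in consecutive protein-coding positions, and are known to act together in calcium entry during pattern-triggered immunity. All 3 were dim on all arrays, and their differences did not run the same way. GLR2.9 (AT2G29100) read 0.98 in the control and 4.89 in the mutant of the sfr6-3 experiment, and 0.11 in the control and 1.66 in the mutant of the sfr6-2 experiment. The mutants were the higher lines, by 3.91 and 1.55, from values near the bottom of the array, and the mean difference of 2.73 was 0.57 after the 20th percentile had been added. GLR2.8 (AT2G29110) stood at 4.64 and 4.47 in the control and mutant of the sfr6-3 experiment, and at 5.57 and 4.56 in those of the sfr6-2 experiment. GLR2.7 (AT2G29120) read 5.69 in the control and 5.58 in the mutant of the sfr6-3 experiment, and 3.18 in the control and 4.11 in the mutant of the sfr6-2 experiment. For GLR2.7 the controls differed by -2.52 (sfr6-2 experiment minus sfr6-3 experiment), and for GLR2.8 both mutants were lower than their controls, by 0.17 and 1.01. A probe set shared by GLR2.2 and GLR2.3 was not used.

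GLR1.4 (AT3G07520) encodes a channel opened by methionine and other amino acids when expressed in frog oocytes. It stood at 5.35 and 2.32 in the control and mutant of the sfr6-3 experiment, and at 5.69 and 5.80 in those of the sfr6-2 experiment. The sfr6-3 array alone was low, by 3.03, and the other 3 lay between 5.35 and 5.80, with all 4 dim.

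**Figure D3:**
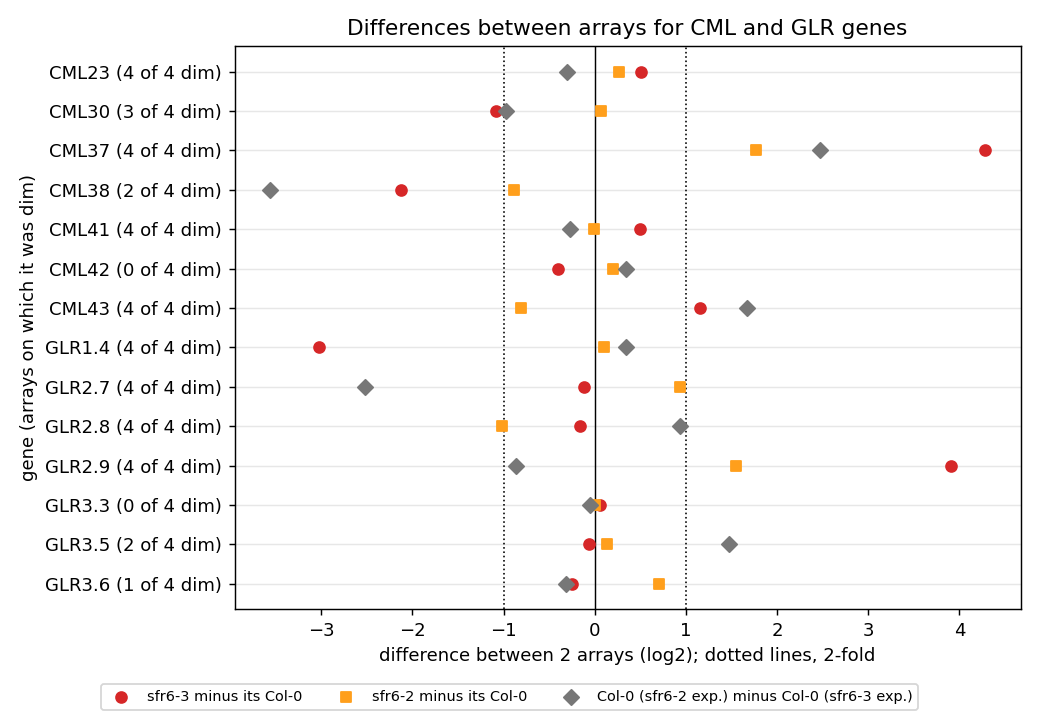
Difference between 2 arrays (log2, horizontal axis; dotted lines at 2-fold) for each CML and GLR gene (vertical axis, with the number of arrays on which it was dim), as red circles for sfr6-3 minus its Col-0, orange squares for sfr6-2 minus its Col-0 and grey diamonds for the control of the sfr6-2 experiment minus that of the sfr6-3 experiment. The wild-type differences of CML38 (-3.56), GLR2.7 (-2.52) and GLR3.5 (1.47) each involve a dim value, and with dim values raised to the limit they are -2.15, 0 and 0.55.

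Across the group, 6 of 14 members differed at least 2-fold between sfr6-3 and its Col-0, 3 lower (CML30, CML38 and GLR1.4) and 3 higher (CML37, CML43 and GLR2.9). Of all genes 24.3% did, 11.5% lower and 12.8% higher. Of 9 members dim on both arrays 4 were past 2-fold, a share like that of all such genes (43.8%). Of 4 members dim on neither array, CML38 was the 1 past 2-fold, beside 6.05% of all such genes. CML30, the 1 member dim on 1 array, was also past 2-fold, as 37.1% of all such genes were. In sfr6-2, 3 of 14 members were past 2-fold, GLR2.8 lower and CML37 and GLR2.9 higher, all dim on both arrays, against 23.5% of all genes (10.7% lower and 12.7% higher). With dim values raised to the limit, CML38 in sfr6-3 was the 1 member still past 2-fold.

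The median difference of the 14 members was -0.09 in sfr6-3 and 0.12 in sfr6-2, beside 0.11 for all genes in both comparisons. These medians were not settled: after quantile normalization they were -0.22 and 0.0010, after cyclic loess -0.23 and -0.039, after median centring -0.21 and 0.064, and with the controls swapped between the experiments 0.09 and 0.18. With dim values raised to the limit both were 0. By class it was 0.50 and 0.06 for the CML genes, and -0.12 and 0.14 for the GLR genes. Signs were opposite in the alleles for 8 members, against 42.1% of all genes. CML38 and GLR2.8 were lower in both, and CML23, CML37, GLR2.9 and GLR3.3 higher. At least 1.5-fold higher in both were CML37 and GLR2.9 (7.64% of all genes were), and CML38 was at least 1.5-fold lower in both (6.15% of all genes). A difference between the alleles could not be tested, because 4 arrays leave no residual degree of freedom for it.

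Between the wild-type arrays of the 2 experiments 5 of the 14 members differed at least 2-fold, CML37, CML38, CML43, GLR2.7 and GLR3.5, against 26.3% of all genes. Of 8 members dim on both of these arrays 3 did, beside 44.6% of all such genes. Of 4 dim on 1 array 2 did, beside 41.2%, and of the 2 dim on neither 0 did, beside 8.60%. The Col-0 arrays differed by more than the sfr6-2 pair in 11 of 14 members (53.4% of all genes) and by more than the sfr6-3 pair in 6 (50.3% of all genes).

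**Figure D4:**
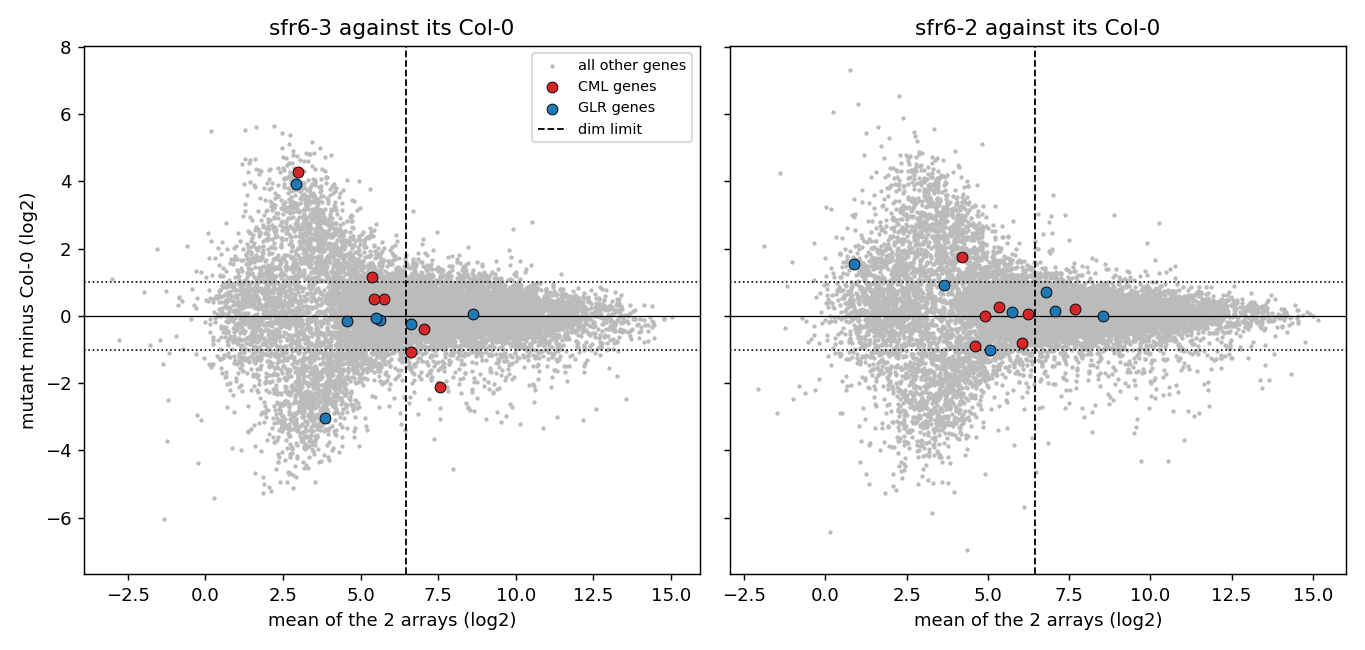
Mutant minus Col-0 (log2, vertical axis) against the mean of the same 2 arrays (log2, horizontal axis) for every gene in grey, CML genes in red and GLR genes in blue, for sfr6-3 (left) and sfr6-2 (right), with dotted lines at 2-fold and a dashed line at the dim limit of 6.46. Most members far from 0 lie left of the limit, where the grey cloud is wide, and CML38 in sfr6-3, at -2.12, lies right of it.

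A pair of further genes carries a matching name only among its synonyms and was looked at after the annotation had been read. AT1G76640, whose synonyms include CML39, is the direct neighbour of CML38 in the gene table. It read 1.04 in the control and 1.84 in the mutant of the sfr6-3 experiment, and 2.38 in the control and 4.13 in the mutant of the sfr6-2 experiment, dim throughout and higher in both mutants, where CML38 was lower. ATGLR1.2, a channel gene, stood at 5.49 and 5.40 in the control and mutant of the sfr6-3 experiment, and at 5.11 and 4.23 in those of the sfr6-2 experiment, also dim throughout.

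The wider list of calcium and cold-signalling genes named CAMTA factors, annexins, oxidases, calcium-binding chaperones and kinases beside others. It was matched by symbol or synonym, so genes under other names, such as CRT1b, which was on the arrays, were left out. The match found 12 measured genes, all of them IQD genes, whose proteins are thought to act as calmodulin-binding scaffolds on microtubules and membranes. Of these 8 reached the mean needed for the test, 0 rose and 0 fell in the limma fit, and IQD23 and IQD31 had an unadjusted p under 0.05. The share of all genes under that unadjusted p is not given here either. IQD31 read 9.34 in the control and 9.78 in the mutant of the sfr6-3 experiment, and 9.33 in the control and 9.94 in the mutant of the sfr6-2 experiment. Both mutants lay above both controls, with a mean difference of 0.52 (SE 0.22, limma adjusted p = 0.230). IQD23 stood at 7.99 and 7.76 in the control and mutant of the sfr6-3 experiment, and at 8.86 and 7.89 in those of the sfr6-2 experiment, with both mutants below both controls and a mean difference of -0.60 (SE 0.26, adjusted p = 0.248). The median of the 12 was -0.03 in sfr6-3 and -0.01 in sfr6-2.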

How the data were processed

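Log2 expression values were made by the authors with MAS5 and affy 1.36.1, per the submitters' processing notes, and on the linear scale each deposited array had a 2% trimmed mean of 500, with no further normalization applied here. Detection calls were not used. With so few arrays, their number sets the precision. Of 22746 probe sets that were not array controls, the platform annotation paired 13513 with 1 gene, 503 with several and left 8730 unnamed, and 13436 names were updated through the TAIR10.1 gene table. The probe set with the highest mean represented a gene, and every member had 1. Genes with a mean under 6.46 were left out of the main fit (limma 3.58.1, R 4.3.3, variance trend, experiment as a block from the design, Benjamini-Hochberg over all genes, 17.5 prior and 1 residual degrees of freedom). Differences between the experiments in Col-0 and in the mutants correlated across genes at 0.58. Members, lists and tests were chosen with earlier results of these data known. Values on all arrays were to be given for members that passed the fit, were past 2-fold while not dim on both arrays, were past 1.5-fold in both experiments, the same or opposite ways, or gave the highest signal of their class, and the remaining members were added. Promoter motifs were not searched. The fit was tested on simulated data with 200 changed genes, where it called 67.0% of 2-fold and 100% of 4-fold changes and 6.18% of its calls were false.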

Additional observations from a re-analysis of the deposited data

Results flagged for a closer look

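CML43 is listed because it moved in opposite directions in the alleles, by 1.15 in sfr6-3 and by -0.81 in sfr6-2, a gap of 1.96 on the log2 scale. The difference was not tested, since each allele has 1 array, and all 4 values were dim. No other member moved at least 1.5-fold each way, the size used here for a movement.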

How the results depend on the processing

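The number of members called stayed at 0 in the main fit and under all 14 alternatives to it, including the fit with no replicate block (smallest member adjusted p = 0.936), in which 0 of all genes were called, as in the fits that leave out 1 array. These 5 fits therefore say nothing about stability. The filter also limits the count: of the 14 members the main fit tested 3, as most alternatives did. The filter at the 60th percentile left 1, and raising dim values to the limit left 5. Only the fit without a filter tested all 14, and for a member not tested a count of 0 says nothing. Over all genes the main fit called 245 lower and 94 higher, against 222 and 40 after quantile normalization, 172 and 17 after cyclic loess, 158 and 14 after median centring, 197 and 40 after the 20th percentile had been added, 101 and 13 without a filter, 136 and 14 with a filter at the 60th percentile, and 140 and 30 without the variance trend. Members past 2-fold in sfr6-3 numbered 6, but 1 with dim values raised to the limit and 2 among members not dim on both arrays, a setting chosen after seeing the data. In sfr6-2 they numbered 3, but 0 under each of these settings and with the 20th percentile added, 7 at 1.5-fold and 1 at 3-fold. Of the 2 in sfr6-3 that were not dim on both arrays, CML30 entered only through its Col-0 array, whose high value also makes its difference. The mean difference of GLR3.3 turned to -0.047 after quantile normalization, -0.077 after cyclic loess and -0.061 after median centring. Leaving out each array in turn also dropped the pairing, so that these values mix the experiments. On that footing it ranged from -0.023 to 0.081, that of CML42 from -0.57 to 0.37, that of GLR3.6 from -0.088 to 0.55 and that of CML38 from -3.28 to 0.27. The cause of the turned signs under the other normalizations was not tested. Only CML42, GLR3.3 and GLR3.6 have a value in the main fit. CML30, CML38 and GLR3.5 have none there, like the 8 members dim on all arrays. Detection calls were not used to place those 8 against background.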
